A study of Homo sapiens with 2 samples.

Results

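The 10 genes described here are the hypoxia-inducible factor subunit HIF1A, its prolyl hydroxylases EGLN1 and EGLN3, the carbonic anhydrases CA2, CA9 and CA12, and the hypoxia targets VEGFA, ADM, NDRG1 and BNIP3. They were chosen by symbol from 30843 symbols in the tables, as genes of oxygen sensing and acid-base control outside glycolysis. Levels were compared between PC9, a human lung adenocarcinoma line with an activating EGFR deletion that is sensitive to EGFR tyrosine kinase inhibitors, and MTAC-P, which was derived from PC9 and resists such inhibitors. Each line gave 1 RNA-seq library from cells grown in DMEM with serum. The labels name no inhibitor at harvest, no hypoxic culture, no cell density and not whether MTAC-P is 1 clone. With 1 library per line no difference below has a replicate check, and no p-value or standard error is given.

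Hypoxia-inducible factor (HIF) is a pair of proteins, an oxygen-controlled alpha subunit such as HIF1A and the stable partner ARNT. In oxygen, EGLN enzymes hydroxylate prolines of the alpha subunit, VHL binds it and the protein is degraded, so that HIF1A is controlled largely as protein and less as RNA. When oxygen is low, HIF binds short DNA elements near its target genes, among them CA9, VEGFA, ADM, NDRG1, BNIP3 and EGLN3, the last of which feeds back on HIF itself. Carbonic anhydrases interconvert carbon dioxide and bicarbonate. CA2 works in the cytosol, while CA9 and CA12 sit in the plasma membrane with the active site outside the cell, where they help tumour cells to export acid.

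The core of the HIF-binding element is ACGTG or GCGTG, and its matches near the start sites of these genes are given first because the set was drawn up around HIF. RefSeq promoter windows (GRCh38.p14, 250 bases before to 50 after each start site) were found for 7 of the 10 genes, in 8 windows because HIF1A has 2. No window was matched for CA2, NDRG1 and VEGFA. On either strand, 6 of the 8 windows held ACGTG or GCGTG, and 48.4% of all 35116 windows did. ACGTG alone was in 3 of the 8, and in 21.4% of all. The EGLN3 window and the second HIF1A window held neither. Matches are written 5′ to 3′ on the strand of the gene with the 5 matching bases in capitals, CACGT and CACGC being the same motifs on the other strand.
CA9 (chr9:35673899-35673925, + strand): cgtttccaatgCACGTacagcccgtac
EGLN1 (chr1:231422285-231422311, - strand): ggccgtggtgtACGTGcagagcgcgca
CA12 (chr15:63382065-63382091, - strand): cggatctcaccCACGCctgccagcagc
ADM (chr11:10304961-10304987, + strand): agcaggagcgcGCGTGgctgaggaaag
HIF1A (chr14:61695298-61695324, + strand): ggctgagagcgGCGTGggctggggtgg
BNIP3 (chr10:131982017-131982072, - strand): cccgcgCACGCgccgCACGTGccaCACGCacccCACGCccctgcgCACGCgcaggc
The CA9 match begins 18 bases before the RefSeq start and the EGLN1 match 13 bases before it. BNIP3 held 6 matches, of which 2 overlap in 1 CACGTG, which reads the same on both strands. CA12 has another GCGTG match, on the opposite strand, that begins at base 40 after its RefSeq start. These are matches of letters only, and binding was not measured.

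The table values are taken as FPKM, that is, fragments scaled to transcript length and library size, although the data do not name the unit. Levels of different genes can be set side by side only as far as their transcripts are listed. In bulk RNA, fewer cells with a transcript and less of it per cell cannot be told apart. Values were summed over the listed transcripts of a symbol, and the lines were compared as log2((MTAC-P + 1)/(PC9 + 1)), hereafter log2 ratio. A gene is called higher or lower at a log2 ratio of at least 1 in size (2-fold), and genes were compared where the mean of both libraries was at least 1 FPKM, which all 10 genes reached. The listed values summed to 693444 FPKM in PC9 against 685082 in MTAC-P; read numbers are not known. All 7 epithelial markers were present, at 35.2 to 2329 FPKM in PC9 and 35.1 to 2720 in MTAC-P. Markers of the lung lineage were low in both, with a highest value of 2.80 for any of 6 and NKX2-1 at 0.0787 and 0. Leukocyte, endothelial and fibroblast markers summed to 4.20 FPKM or less per list and library, most of it from CDH5 for the endothelial list.

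The 10 genes lay on both sides of 0, 5 above and 5 below. EGLN3, CA9 and CA12 were at least 2-fold lower in MTAC-P, and no member of the set was higher by as much. Among all 11435 genes compared, 4.29% were lower by this rule and 7.77% were called in either direction. CA9 and CA12 passed the filter on the mean only through PC9, since both were below 1 FPKM in MTAC-P, so their count beside this share is a description and supports nothing. HIF1A, EGLN1, CA2, NDRG1 and BNIP3 lay above 0 without reaching 2-fold, and VEGFA and ADM below it. The median log2 ratio of the 10 was -0.03, beside -0.02 for all genes compared. The 3 lower genes are also the 3 with the lowest means of the 10, and they are the only ones of the 10 with a mean between 1 and 3 FPKM. Of all 2267 genes in that range 14.2% were called, 6.31% as higher and 7.85% as lower. What part low level has in their calls was not tested.

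In PC9 the order of levels was HIF1A, BNIP3, VEGFA, EGLN1, CA2, ADM, EGLN3, NDRG1, CA9 and CA12. In MTAC-P it differed in 1 place, with NDRG1 above ADM and EGLN3. Which neighbours in this order differ beyond the spread between cultures cannot be said with 1 library per line. The sums also cover unequal parts of the genes. They hold 2 of 15 annotated coding transcripts of NDRG1, 1 of 8 of ADM and 1 of 4 of EGLN3. For EGLN1 and CA2 they hold the only one, so the order is that of listed transcripts.

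**Figure D1:**
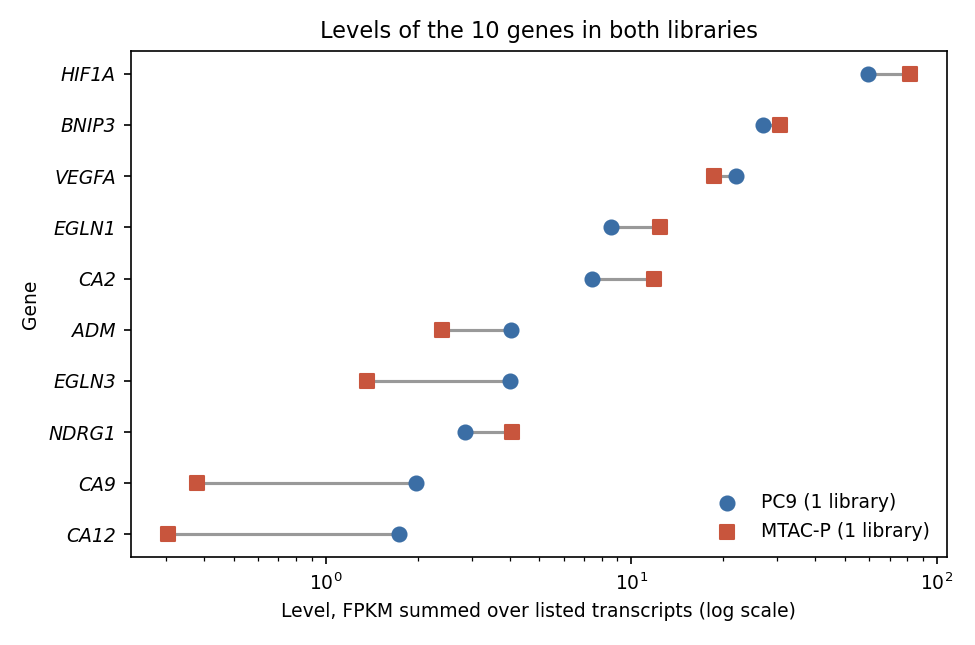
Level of each of the 10 genes in PC9 (circles) and MTAC-P (squares), in FPKM on a log axis, 1 library per line, so there are no error bars. The longest lines are those of CA12, CA9 and EGLN3, whose MTAC-P values are 0.304, 0.378 and 1.37.

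HIF1A (chr14:61695513-61748259 in GENCODE release 29, GRCh38), the oxygen-controlled subunit, was the most abundant of the 10 genes in both libraries. It stood at 59.5 FPKM in PC9 against 81.3 in MTAC-P, a log2 ratio of 0.44. The sum was higher in MTAC-P by 1.37 times, and 86.3% of all genes compared had a lower log2 ratio.

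All 3 listed HIF1A transcripts had higher values in MTAC-P, but by unequal amounts. HIF1A-202, the main transcript with 15 exons, stood at 47.8 and 53.4 FPKM (log2 ratio 0.16). HIF1A-203 stood at 8.56 and 16.5 (0.88). HIF1A-201, which has 14 exons, stood at 3.18 and 11.3 (1.56). The share of the summed level carried by HIF1A-202 was thus 80.3% in PC9 against 65.8% in MTAC-P, and that of HIF1A-201 was 5.35% and 13.9%.

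The HIF1A transcripts share most of their sequence, and coding stretches in which they differ are printed here. HIF1A-201 skips exon 14 of HIF1A-202, a wholly coding exon of 127 bases (chr14:61745691-61745817, + strand). This is not a whole number of codons. In HIF1A-201 the coding sequence ends 3 bases after the new junction, before the stop codon, and has 2205 bases where HIF1A-202 has 2478. The skipped form is known to lack the C-terminal transactivation domain, which recruits coactivators. The skipped exon is given in capitals with 10 transcript bases on each side. The junction of each transcript follows, with the first 15 bases of the next exon in capitals, and then the bases that set HIF1A-203 apart.
exon 14 of HIF1A-202: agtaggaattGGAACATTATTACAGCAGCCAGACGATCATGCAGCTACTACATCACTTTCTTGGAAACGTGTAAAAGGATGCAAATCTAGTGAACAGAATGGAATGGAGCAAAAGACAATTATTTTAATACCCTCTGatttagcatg
HIF1A-202 junction: caagcagtaggaattGGAACATTATTACAG
HIF1A-201 junction: caagcagtaggaattATTTAGCATGTAGAC
HIF1A-203 extra bases: gacaagaaaaaTAGgataagttctg
HIF1A-203 has every exonic base of HIF1A-202 and 3 more, in capitals on the last line (chr14:61720379-61720381). All 3555 exonic bases of HIF1A-201 are also in the other listed transcripts. HIF1A-202 in turn has 364 exonic bases that HIF1A-201 lacks, those of exon 14 and others at the 5′ end, since HIF1A-201 starts later (base 61695777 against 61695540). The tables give no junction reads and no interval for any of these values. Listed transcripts with exon 14 summed to 56.3 FPKM in PC9 against 70.0 in MTAC-P (0.31). Of the 5 coding transcripts of HIF1A in GENCODE, 3 were listed.

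Of the prolyl hydroxylases, EGLN3 was called lower and EGLN1 was within 2-fold. EGLN1 (chr1:231363751-231425044), the main hydroxylase that sets HIF levels in normal oxygen, stood at 8.57 FPKM in PC9 against 12.4 in MTAC-P (log2 ratio 0.49). MTAC-P was higher by 1.45 times, and 88.3% of all genes compared had a lower log2 ratio. The 1 coding transcript of EGLN1 in GENCODE is listed. EGLN1 lies on chromosome 1, whose 1104 genes compared had a median log2 ratio of 0.17, and the part of this in the EGLN1 value was not tested.

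EGLN3 is the hydroxylase that is itself induced by HIF. It stood at 4.0 FPKM in PC9 against 1.37 in MTAC-P (log2 ratio -1.08), 2.93 times higher in PC9 without the pseudocount. The value is that of 1 listed transcript (chr14:33924231-33951081), and GENCODE has 4 coding transcripts. Of all genes compared, 3.57% had a lower log2 ratio.

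EGLN2, the remaining hydroxylase, is not among the 10 and is named for its role, after its values were seen. It stood at 34.3 and 29.6 FPKM and was the most abundant of the enzymes. EGLN1 made up 18.3% of the 3 genes' summed level in PC9 against 28.6% in MTAC-P, and EGLN3 8.53% and 3.14%. These are shares of listed transcripts only, which hold 2 of 14 GENCODE coding transcripts of EGLN2 and 1 of 4 of EGLN3. The sums themselves were 46.9 and 43.4 FPKM.

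Of the 3 carbonic anhydrases among the 10, CA9 and CA12, both membrane enzymes, were called lower in MTAC-P, and CA2 was within 2-fold. CA2, the cytosolic enzyme (chromosome 8), stood at 7.42 FPKM in PC9 against 11.8 in MTAC-P (log2 ratio 0.61), the highest log2 ratio of the 10 genes, with 91.6% of all genes compared below it. Its 1 coding transcript in GENCODE is the one listed.

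CA9 (chr9:35673856-35681159), the membrane enzyme used as a marker of hypoxic tumour tissue, stood at 1.97 FPKM in PC9 against 0.378 in MTAC-P (log2 ratio -1.11). Without the pseudocount PC9 was 5.21 times higher. The listed transcript is 1 of 2 coding transcripts, and 3.42% of all genes compared had a lower log2 ratio. CA9 had the lowest log2 ratio of the 10.

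CA12 (chr15:63321378-63382161), the other membrane enzyme, stood at 1.73 FPKM in PC9 against 0.304 in MTAC-P (log2 ratio -1.07), a 5.70 times higher value in PC9 without the pseudocount. All 3 of its coding transcripts were listed, and none reached 1 FPKM alone. CA12-201 stood at 0.781 and 0.304, CA12-202 at 0.608 and listed at 0, and CA12-203 at 0.344 and listed at 0. No single CA12 transcript had a log2 ratio of at least 1 in size, and the call rests on their sum. CA12 had a mean of 1.02 FPKM and so passed the filter by little, and 3.69% of all genes compared had a lower log2 ratio.

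The CA12 transcript with a value above 0 in both libraries is the one that carries exon 9, of 33 coding bases (chr15:63328098-63328130, - strand). It is shown because it separates CA12-201 from the others. The exon is in capitals with 10 transcript bases on each side.
exon 9 of CA12-201: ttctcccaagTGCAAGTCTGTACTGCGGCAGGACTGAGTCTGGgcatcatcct
All exonic bases of CA12-202 and CA12-203 are also in the other listed CA12 transcripts, so their values of 0 in MTAC-P are estimates over shared sequence.

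The 15 carbonic anhydrase genes in the tables summed to nearly the same level, 15.8 FPKM in PC9 against 16.9 in MTAC-P, with a different makeup. CA2 contributed 47.1% in PC9 against 70.1% in MTAC-P. CA9 and CA12 together made up 23.5% and 4.03%. These are shares of listed transcripts only, which hold 1 of 2 GENCODE coding transcripts of CA9 and of CA11 and 1 of 4 of CA5B. Of the 15, 5 were compared, and CA9 and CA12 were the ones called, beside 7.77% of all genes compared. Both reached a mean of 1 FPKM only through PC9, so this count supports nothing. The others compared, named here after their values were seen, were the mitochondrial CA5B (1.06 and 2.55 FPKM, log2 ratio 0.79) and CA11 (3.35 and 1.64, -0.72), a family member without catalytic activity. CA5B has a related pseudogene, CA5BP1, at 19.0 and 18.3 FPKM, so its own value is uncertain. Of the 10 not compared, 6 were listed at 0 in both libraries.

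**Figure D2:**
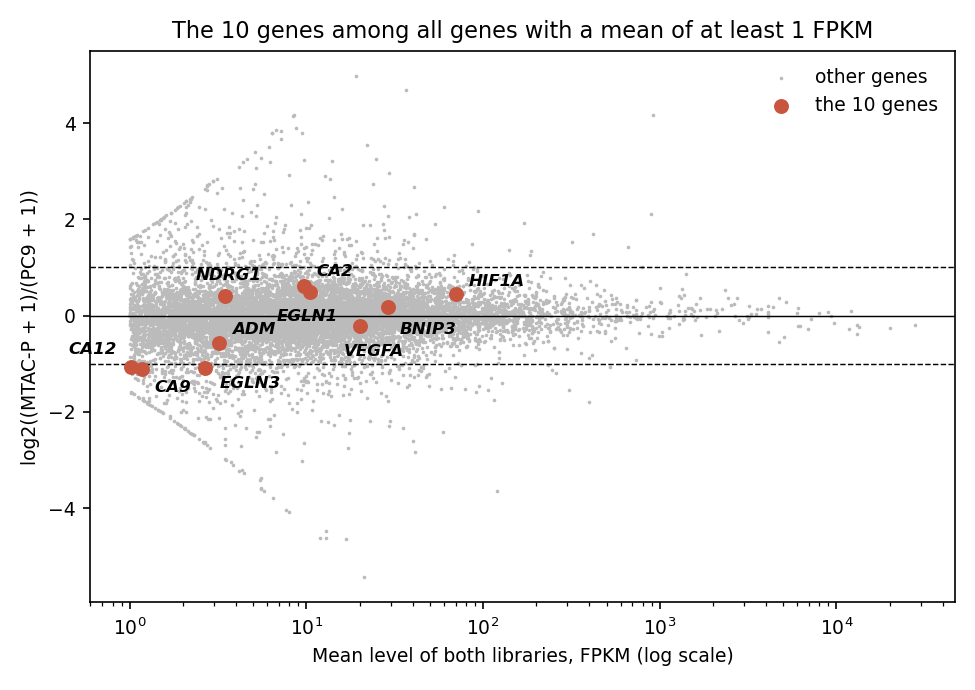
Log2 ratio of every gene compared against its mean level in FPKM (log axis), with the 10 genes marked and dashed lines at 2-fold. CA9, CA12 and EGLN3 sit just beyond the lower line at the low end of the level axis, and the other 7 lie between the lines.

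VEGFA, the angiogenic growth factor gene (chromosome 6), had nearly the same sum in both libraries but from different transcripts. It stood at 21.9 FPKM in PC9 against 18.6 in MTAC-P (log2 ratio -0.23). Of its 26 coding transcripts in GENCODE 9 were listed, and 4 of those reached 1 FPKM in either library.

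VEGFA-201 stood at 9.29 FPKM in PC9 against 0.0709 in MTAC-P (log2 ratio -3.26). VEGFA-205 stood at 4.92 and 14.2 (1.36). VEGFA-206 stood at 6.10 and 3.47 (-0.67) and VEGFA-204 at 1.57 and 0.860 (-0.47). Of the other 5 listed, 3 were at 0 in both libraries and none exceeded 0.0249. VEGFA-201 therefore made up 42.4% of the VEGFA sum in PC9 against 0.381% in MTAC-P, while VEGFA-205 made up 22.5% and 76.3%.

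These transcripts differ at the start, by an exon and at the 3′ end. VEGFA-201 ends at base 43784935, while VEGFA-204, VEGFA-205 and VEGFA-206 end at base 43786487. VEGFA-201 has a first exon of its own, and these 110 of its 993 exonic bases are in none of the other 3. VEGFA-205 and VEGFA-201 both carry a coding exon of 132 bases, which encodes most of the heparin-binding region that holds the growth factor at the cell surface and matrix, and VEGFA-204 and VEGFA-206 lack it. Listed transcripts with that exon summed to 14.2 FPKM in PC9 against 14.3 in MTAC-P. Those without it summed to 7.67 and 4.33 (-0.70), or 35.0% of VEGFA in PC9 against 23.3% in MTAC-P. The difference between VEGFA-201 and VEGFA-205 thus cancelled in the exon's sum. VEGFA-201 shares 88.9% of its exonic bases with VEGFA-205, and the split between them is the software's estimate.

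**Figure D3:**
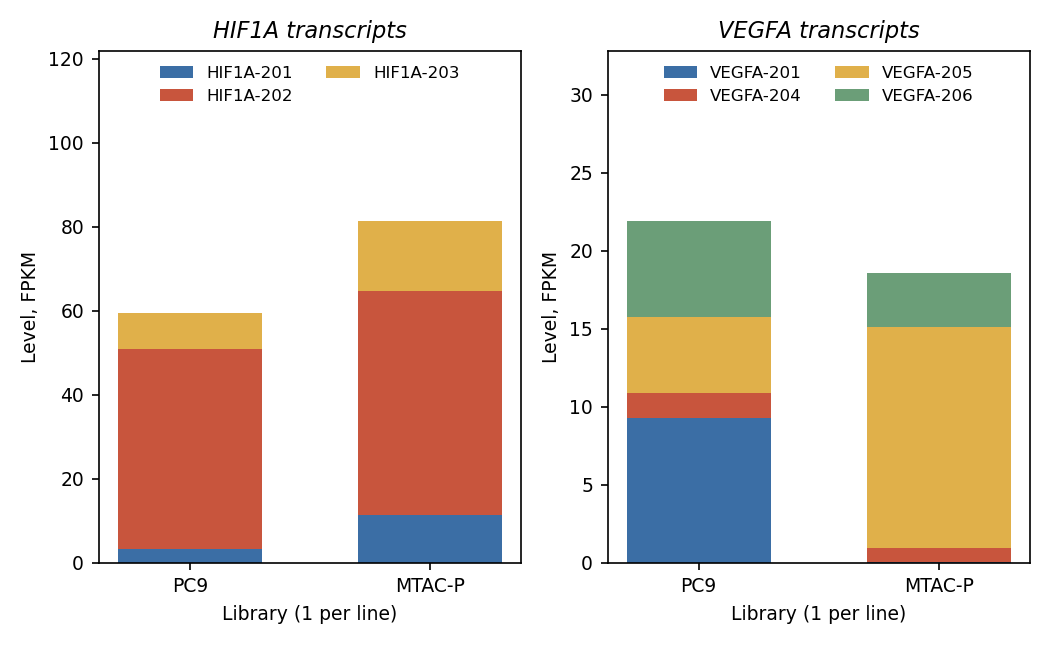
Stacked FPKM of the HIF1A and VEGFA transcripts with at least 1 FPKM in either library, by library. For HIF1A every segment is taller in MTAC-P; for VEGFA the VEGFA-201 segment, 9.29 in PC9, is too small to see in MTAC-P at 0.0709.

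ADM (chr11:10304680-10307397), which encodes the vasodilator peptide adrenomedullin, stood at 4.03 FPKM in PC9 against 2.40 in MTAC-P (log2 ratio -0.57). The value is from 1 of its 8 coding transcripts. ADM and EGLN3 stood at nearly the same level in PC9, and ADM was within 2-fold. Of all genes compared, 11.8% had a lower log2 ratio than ADM.

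BNIP3 and NDRG1, the intracellular targets among the 10, were within 2-fold. BNIP3 (chr10:131966455-131982013), which promotes removal of mitochondria, stood at 27.0 FPKM and 30.6 (log2 ratio 0.18), from 1 of 3 coding transcripts. Its pseudogene BNIP3P1 stood at 1.23 and 2.06, and reads of the pair could be mixed. NDRG1 (chromosome 8), a stress-induced gene linked to differentiation, stood at 2.85 and 4.08 (0.40). Its main transcript NDRG1-201 stood at 2.76 and 3.02 (0.10), and NDRG1-202 at 0.0588 and 0.149. Most of the gap came from a transcript that is not in GENCODE release 29, at 0.0264 and 0.909. Of 15 coding transcripts of NDRG1, 2 were listed.

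At the level of single transcripts, 14 of the 24 listed for the 10 genes had a mean of at least 1 FPKM. HIF1A-201 and VEGFA-205 exceeded 2-fold towards MTAC-P, and VEGFA-201, EGLN3-201 and CA9-201 towards PC9. Of all 19406 transcripts with such a mean, 16.6% were called, 7.76% as higher and 8.88% as lower.

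The other genes of oxygen and acid-base control were read from 6 lists by role with 88 symbols in the tables, of which 63 were compared. The membership of these lists was drawn up with earlier results known. Of the 63, 2 were called higher in MTAC-P, beside 3.48% of all genes, and 6 were called lower, beside 4.29%, with a median log2 ratio of 0.02. CA9 and CA12, among the 6, reached a mean of 1 FPKM only through PC9, so this count beside its share supports nothing. With the most abundant transcript of each gene only, 59 genes of the lists were compared. Of these 4 were higher and 3 lower, beside 491 higher and 588 lower of all 11092 genes compared in that way. At 1.5-fold 10 of the 63 were higher and 9 lower, beside 1025 and 1282 of all 11435 genes. Without the 10 genes, 53 were compared, 2 were higher and 3 lower, and the median was again 0.02.

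Among 12 genes of oxygen sensing and HIF subunits compared, EGLN3 was the 1 called, beside 7.77% of all genes. EPAS1, the alpha subunit known as HIF-2 alpha, stood at 37.5 and 30.7 FPKM (log2 ratio -0.28). ARNT stood at 5.40 and 9.08 (0.66), and like EGLN1 it lies on chromosome 1. VHL stood at 37.8 and 39.1 (0.05). EPAS1, ARNT and VHL are named here for their roles and after their values were seen.

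Of 8 acid and bicarbonate transport genes none was called (median 0.09), beside 7.77% of all genes. The lactate transporter SLC16A1, on chromosome 1, stood at 40.3 and 79.7 FPKM (log2 ratio 0.97), just short of 2-fold on this scale. Its chaperone BSG stood at 346 and 310 (-0.16).

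Of 8 secreted targets compared, 5 lay above 0, as did 47.6% of all genes, with a median of 0.38, and 7 were within 2-fold. STC2, a secreted glycoprotein gene, was the 1 called, at 14.7 and 31.6 FPKM (log2 ratio 1.05), while VEGFA and ADM lay below 0. Among all genes 3.48% were called higher. Of 9 genes listed for VEGF and adrenomedullin receptors 3 reached the mean of 1 FPKM, and none was called, beside 7.77% of all genes. The 6 not compared, named after their values were seen, were KDR, FLT1, FLT4, CALCRL, RAMP2 and RAMP3. Their highest value was 0.0871 FPKM, for RAMP2 in PC9. NRP1, a VEGF coreceptor, stood at 42.4 and 34.6 (-0.29), and RAMP1, a receptor activity-modifying protein, at 21.1 and 22.0 (0.06).

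Of 27 intracellular targets compared, 1 was higher, 3 were lower and 23 were within 2-fold (median 0.04), beside 3.48% higher and 4.29% lower among all genes. BHLHE41, a transcriptional repressor of the circadian clock, stood at 97.4 and 33.6 FPKM (log2 ratio -1.51). HILPDA, which protects lipid droplets from lipolysis, stood at 24.5 and 8.25 (-1.46), and INSIG2, a brake on cholesterol synthesis, at 25.3 and 12.0 (-1.02), which fell just short of 2-fold when ratios were centred on the median of all genes. TMEM45A, a transmembrane protein gene, was the higher one, at 1.14 and 5.98 (1.71). The calls of BHLHE41, HILPDA and INSIG2 each rest on 1 of 2 listed transcripts. For BHLHE41 the more abundant one, a retained-intron transcript in GENCODE, stood at 70.5 and 19.1 (-1.83), and the coding one, at 26.9 and 14.5 (-0.85), was within 2-fold. The deposited labels call both listed transcripts of BHLHE41 coding, and both of INSIG2, while in GENCODE 1 of the 2 is coding for each gene. The second transcript of HILPDA stood at 9.86 in PC9 and 6e-06 in MTAC-P, while its main one stood at 14.6 and 8.25 (-0.76). The second transcript of INSIG2 stood at 7.34 and was listed at 0, while its main one stood at 18.0 and 12.0 (-0.55).

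**Figure D4:**
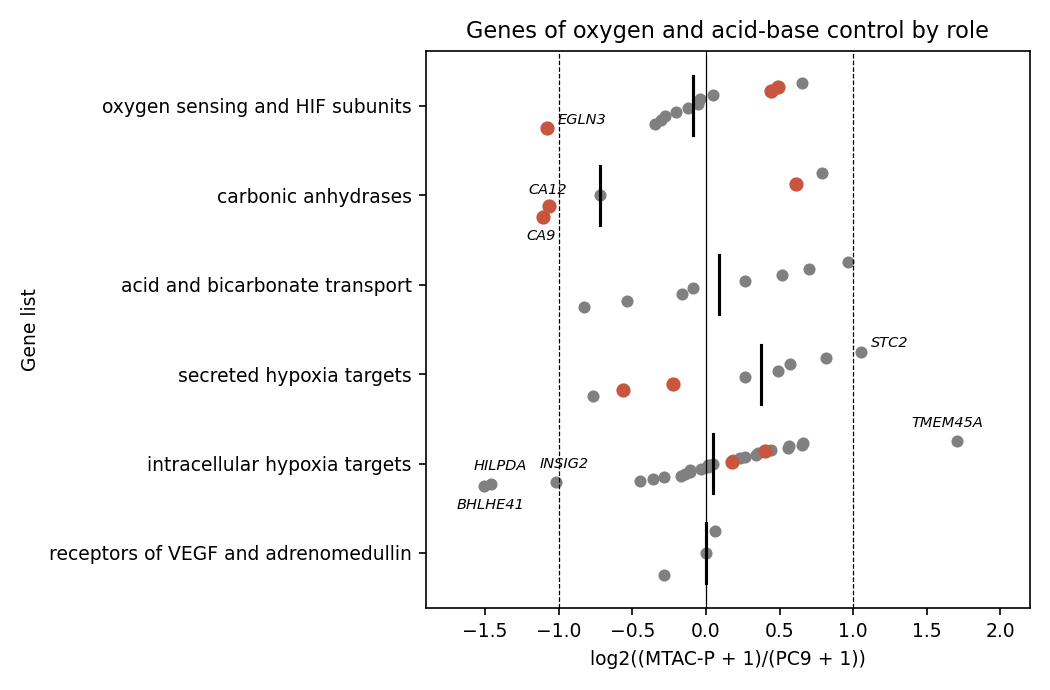
Log2 ratio of each gene compared in 6 lists by role, with the 10 genes in red, list medians as vertical bars and dashed lines at 2-fold. Names are given for the 8 genes called, 2 to the right and 6 to the left, and most points lie between the lines.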

How the data were processed

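RNA-seq libraries of PC9 and MTAC-P, 1 each, were used. The series text mentions triplicates, and any pooling of cultures is not stated in the labels. Trim Galore, TopHat and Cufflinks were the authors' tools and hg38 the build, per the submitters' processing notes. The deposited tables hold a single value for every transcript without naming its unit, and FPKM was assumed from the use of Cufflinks. Each table ends at 65536 lines, with transcript number 437205, and later transcripts were not analysed here.

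Values were summed per symbol and compared as log2((MTAC-P + 1)/(PC9 + 1)) at a mean of at least 1 FPKM, with 2-fold as threshold (Python 3.11.15, pandas 2.3.3). Coordinates, exons and transcript sequences are from GENCODE release 29 (GRCh38, the assembly that hg38 names). Of the 10 genes' 68 GENCODE coding transcripts 23 were listed, and 3 genes had all of theirs. Named were the 10 genes, the called genes of each role list (at most 6, or the 2 most abundant where none was called) and transcripts of the 10 genes of at least 1 FPKM in either library; other names are marked in the text or give the makeup of a gene's sum. The genes and lists were chosen with earlier results of these data known. The comparison was tested on simulated data. Alternatives were the pseudocount, the filter, 4 scalings, the transcripts summed and the threshold.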

Additional observations from a re-analysis of the deposited data

How the results depend on the processing

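The count of 3 among the 10 genes at 2-fold became 0 with a pseudocount of 5, at a mean of at least 5 (5 genes compared) and at 4-fold, and 1 of 3 among genes with complete coding transcripts, an alternative chosen after seeing the data. The 8 of the role lists became 2, 4, 0 and 3 under these settings in the same order, and 19 at 1.5-fold. The 888 genes called became 284, 431, 174 and 146, then 2307 at 1.5-fold and 1344 with a pseudocount of 0.1. Stricter filters and the last alternative compare fewer genes. Of 80 log2 ratios computed for the 10 genes with other settings, 75 stayed on the same side of 2-fold with the same sign. Not all of these are checks. Summing coding transcripts only left all 10 values unchanged. The 6 genes with 1 listed transcript could not change with the most abundant transcript only. With a pseudocount of 5, CA9 (-0.37), CA12 (-0.34) and EGLN3 (-0.50) came within 2-fold, as did CA12 (-0.45) with its most abundant transcript only. That setting turned VEGFA to 1.36, the value of VEGFA-205. The scalings moved the median of all genes from -0.02 to between -0.05 and 0. No paired analysis was possible because there was only 1 library per line, and so no replicate could be left out either. Depth is unknown, so values such as those of CA9 and CA12 in MTAC-P cannot be given a precision.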
